A study of Mus musculus with 8 samples.

Results

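The genes followed here are 10 of the 49671 gene identifiers in the deposited count table: Hk2, Hk1, Pfkfb3, Slc2a1, Ldha, Pgk1, Pdk1, Ndrg1, Bnip3 and Hif1a. They are genes of glucose uptake, glycolysis and the response to low oxygen, found by their symbols in the authors' deposited table and joined by identifier to the counts of 8 libraries. The set was selected on measured values, the counts of Hk2 and Ndrg1, which had been seen to differ between sets of these libraries, so differences between libraries are given as a description, with no test. The genotype contrast is read from a fit over all genes, and nothing is read from its outcome for Hk2 and Ndrg1, whose split runs through both groups. RNA was sequenced from lung stroma of adult mice, 1 mouse per library: 4 mice were Gli2creERT2-tdt:R26RYFP/SmoM2 and 4 controls were Gli2creERT2-tdt:R26RYFP. In both groups a tamoxifen-inducible Cre made from the Gli2 locus turns on a yellow fluorescent reporter in GLI2+ cells, and the reporter-positive cells were sorted. In the SmoM2 group Cre also turns on SmoM2, a constitutively active Smoothened that drives Hedgehog signalling. For the SmoM2 mice a daily intraperitoneal dose of tamoxifen, 200 mg per kg, over 5 days is stated, and the dosing of the controls is not given in the sources used here. Column names give each library's group and a number, not its animal, so libraries are called by group and number.

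Glucose enters a cell through transporters such as GLUT1 and is trapped when a hexokinase adds a phosphate to it. Glycolysis then splits it to pyruvate, which either enters the mitochondrion through pyruvate dehydrogenase or is reduced to lactate. When oxygen is low, the hypoxia-inducible factor HIF-1 escapes degradation, binds DNA at the core RCGTG, and raises genes of glucose transport, glycolysis, lactate production and the removal of mitochondria.

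Estimated counts summed to between 91.6 and 111.6 M units in a library, or 18.3 to 22.3 M fragments if 5 units are taken as 1 fragment. The least abundant member, Pdk1, then rested on 130 fragments or more in every library and Hk2 on 556 or more, which gives counting errors of at most 8.78% and 4.24%. Hedgehog target genes did not separate the groups. Gli1 averaged 101 ± 21.5 CPM (counts scaled to the library's total) in SmoM2 libraries and 99.3 ± 32.9 CPM in control libraries (SD, n = 4 each), and the 95% interval of its log2 fold change ran from −0.54 to 0.60 around 0.03. The 4 libraries are therefore called SmoM2-labelled. Fibroblast markers summed to 73131, 61429, 47668 and 63649 CPM in SmoM2-labelled libraries 1 to 4. In control libraries 1 to 4 they summed to 64058, 62715, 58760 and 45513 CPM, and the sum was lowest in control 4 and SmoM2-labelled 3. Levels below are CPM on library sizes scaled by the trimmed mean of M-values (TMM).

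The promoters of 4 members are shown because these are the genes with the widest spreads in opposite library orders (Hk2 and Bnip3) and the genes with the narrowest spreads (Ldha and Pgk1). Each is the 230 bases that end 20 bases before an annotated start, from RefSeq on GRCm38.p6, 5′ to 3′ on the gene's strand. Capitals mark each match to ACGTG or GCGTG, the forms of the HIF core, on either strand, where CACGT and CACGC are the reverse complements. The windows are Hk2 at chr6:82774475-82774704 (minus strand), Bnip3 at chr7:138909527-138909756 (minus strand), Ldha at chr7:46845554-46845783 (plus strand) and Pgk1 at chrX:106186850-106187079 (plus strand).
Hk2: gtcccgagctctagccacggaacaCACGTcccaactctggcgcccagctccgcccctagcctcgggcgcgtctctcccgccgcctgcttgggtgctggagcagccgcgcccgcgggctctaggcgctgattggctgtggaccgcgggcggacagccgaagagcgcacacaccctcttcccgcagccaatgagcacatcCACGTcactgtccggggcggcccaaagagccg
Bnip3: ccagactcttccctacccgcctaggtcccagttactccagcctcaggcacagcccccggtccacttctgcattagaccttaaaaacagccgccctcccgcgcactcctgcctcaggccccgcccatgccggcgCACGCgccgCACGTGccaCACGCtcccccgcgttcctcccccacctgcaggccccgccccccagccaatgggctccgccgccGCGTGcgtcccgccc
Ldha: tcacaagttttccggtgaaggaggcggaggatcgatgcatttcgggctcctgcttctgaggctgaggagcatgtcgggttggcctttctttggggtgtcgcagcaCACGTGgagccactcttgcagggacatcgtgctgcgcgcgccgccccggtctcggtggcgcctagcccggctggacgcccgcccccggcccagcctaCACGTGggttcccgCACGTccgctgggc
Pgk1: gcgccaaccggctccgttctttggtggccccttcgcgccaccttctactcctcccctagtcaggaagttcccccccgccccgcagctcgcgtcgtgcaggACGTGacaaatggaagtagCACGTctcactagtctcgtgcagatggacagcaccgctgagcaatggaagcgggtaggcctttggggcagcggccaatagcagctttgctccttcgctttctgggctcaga

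In the windows shown, Hk2 has 2 matches to ACGTG and none to GCGTG, Pgk1 has 2 and none, Ldha has 5 and none, and Bnip3 has 2 and 3. Ldha has another window, at chr7:46846832-46847061, which is not shown and has 0 matches to ACGTG and 1 to GCGTG. The sequence CACGTG holds ACGTG on both strands and was counted on each, as in Ldha and Bnip3. Of 32851 promoter windows of the same length, 15.1% held ACGTG, 26.1% held GCGTG and 36.0% held either. The table has 13 windows for 9 of the 10 members. ACGTG lay in 8 windows of 7 members, and either form in 11 windows of 9 members. Ndrg1 was not among the genes with a window. A match describes letters and does not show a bound site.

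Hk2, at chr6:82725025-82774454 in mm10, encodes the hexokinase that is abundant in muscle and fat and is induced in proliferating and hypoxic cells. It stood at 45.0, 89.95, 29.0 and 102 CPM in SmoM2-labelled libraries 1 to 4, against 29.4, 130.2, 109 and 25.2 CPM in control libraries 1 to 4. Each group held 2 libraries at 89.95 CPM or more and 2 libraries at 45.0 CPM or less, so the groups overlapped throughout. The highest library was 5.17 times the lowest. Of the 11395 tested genes averaging 5 CPM or more, 1.62% had a larger SD of log2 CPM within groups than Hk2. In bulk RNA, fewer cells of a type and less RNA per cell cannot be told apart. Libraries read as male from Y-linked genes ranged over 29.4 to 109 CPM and those read as female over 25.2 to 130.2 CPM, with 2 of each sex in each group.

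**Figure D1:**
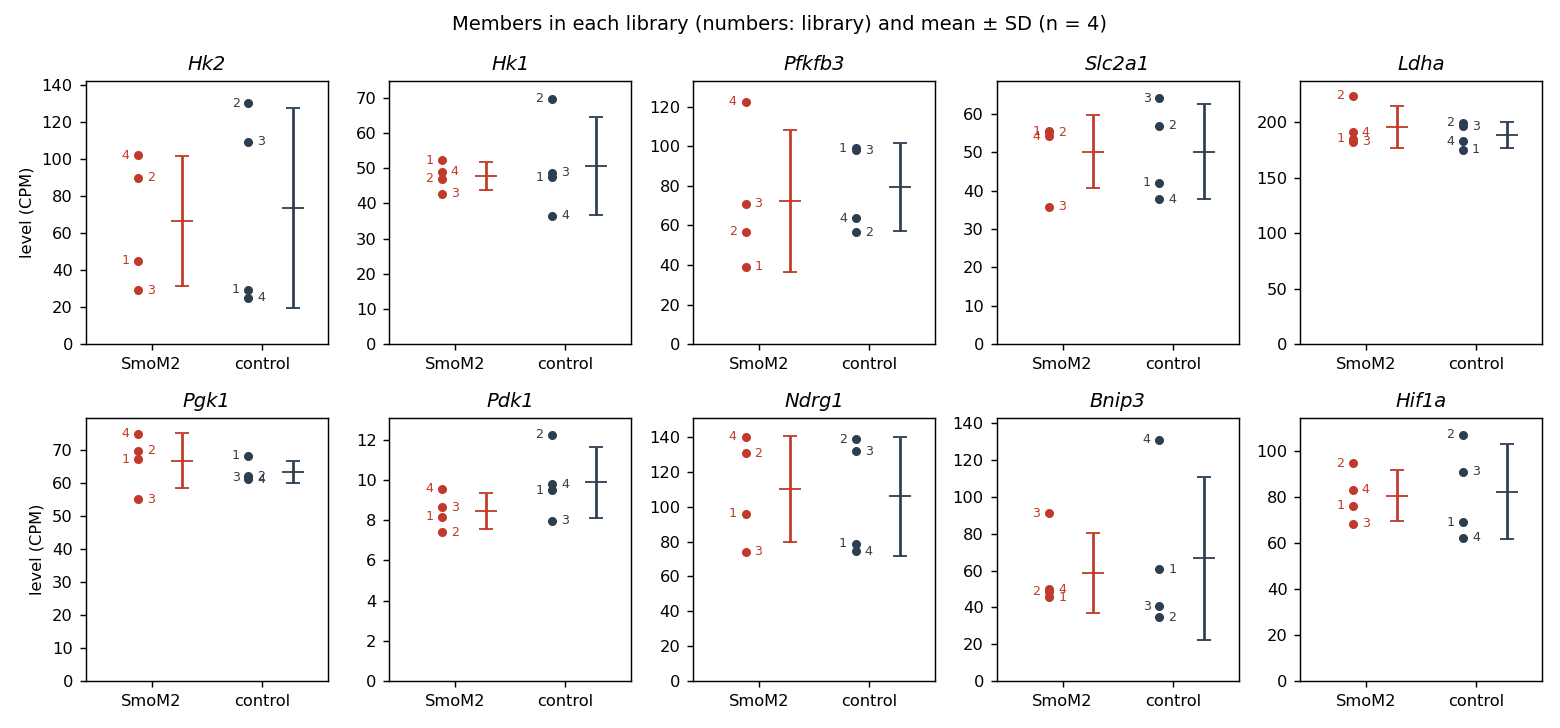
Level in CPM of each of the 10 genes in every library (points, numbered by library) with the mean and SD of the group (bars, n = 4), SmoM2-labelled left and control right; each panel has its own scale from 0. Hk2 splits into high and low libraries within both groups, Bnip3 is highest in control 4 and SmoM2-labelled 3, and Ldha and Pgk1 vary little.

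Ndrg1, at chr15:66929318-66969640, encodes a stress-responsive cytoplasmic protein that is raised by hypoxia and differentiation. It had 95.9, 131, 74.2 and 140.1 CPM in SmoM2-labelled libraries 1 to 4, against 78.6, 139, 132 and 74.6 CPM in control libraries 1 to 4. Hif1a, at chr12:73901375-73947530, encodes the oxygen-regulated subunit of HIF-1, which is controlled mainly through protein stability. Its levels were 76.2, 94.6, 68.3 and 83.1 CPM in SmoM2-labelled libraries and 69.0, 107, 91.0 and 62.2 CPM in control libraries. For Hk2, Ndrg1 and Hif1a alike, control 2, control 3, SmoM2-labelled 2 and SmoM2-labelled 4 were the 4 highest libraries. The highest library was 1.89 times the lowest for Ndrg1 and 1.72 times for Hif1a, against 5.17 times for Hk2.

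Control 1, control 4 and SmoM2-labelled 3 were the 3 lowest libraries for 5 of the 10 genes, Hk2, Ndrg1, Hif1a, Slc2a1 and Ldha. Over all tested genes, 6.5% had the same 3 lowest libraries as Hk2. The same 4 highest libraries as for Hk2 were found for 4 members, Hk2, Ndrg1, Hif1a and Ldha, and for 4.15% of all tested genes. Hk2 and Ndrg1 were chosen for this split, so nothing is read from these counts.

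Slc2a1, at chr4:119108711-119137983, encodes GLUT1, the widespread basal glucose transporter. It had 55.5, 55.3, 35.8 and 54.2 CPM in SmoM2-labelled libraries, against 42.1, 56.9, 64.0 and 37.8 CPM in control libraries. SmoM2-labelled 3 was the lowest of all and the other SmoM2-labelled libraries were nearly equal. Hk1, at chr10:62268855-62379908, encodes the hexokinase found in most tissues. Its levels were 52.2, 46.9, 42.7 and 48.9 CPM in SmoM2-labelled libraries and 47.5, 69.6, 48.7 and 36.4 CPM in control libraries, so the spread was mainly that of control 2 and control 4. Hk1 varied 1.91-fold between its highest and lowest library.

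Hk2 and Hk1 were compared as shares of the hexokinase transcripts, in CPM per kilobase of exon over Hk1, Hk2, Hk3 and Hkdc1. Hk2 made up 53.7%, 70.9%, 46.5% and 71.5% in SmoM2-labelled libraries 1 to 4, against 45.5%, 71.8%, 74.3% and 46.1% in control libraries 1 to 4. Per kilobase Hk2 stood above Hk1 in 5 of the 8 libraries, the exceptions being SmoM2-labelled 3, control 1 and control 4. The length used was that of all annotated exons of a gene together. Without division by length, Hk2 was also below Hk1 in SmoM2-labelled 1 (45.0 against 52.2 CPM). The Hk2 share then ran from 37.6% to 68.2%, with means of 53.8% in SmoM2-labelled and 52.4% in control libraries. Per kilobase, the mean share was 60.7% ± 12.5 in SmoM2-labelled libraries and 59.5% ± 15.8 in control libraries (SD, n = 4 each). The difference was 1.21 percentage points, given with no test because Hk2 was chosen for its levels in these libraries. The sign of that difference turned without SmoM2-labelled 2, SmoM2-labelled 4, control 1 or control 4, with values from −3.43 to 6.16 points over the 8 omissions.

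**Figure D2:**
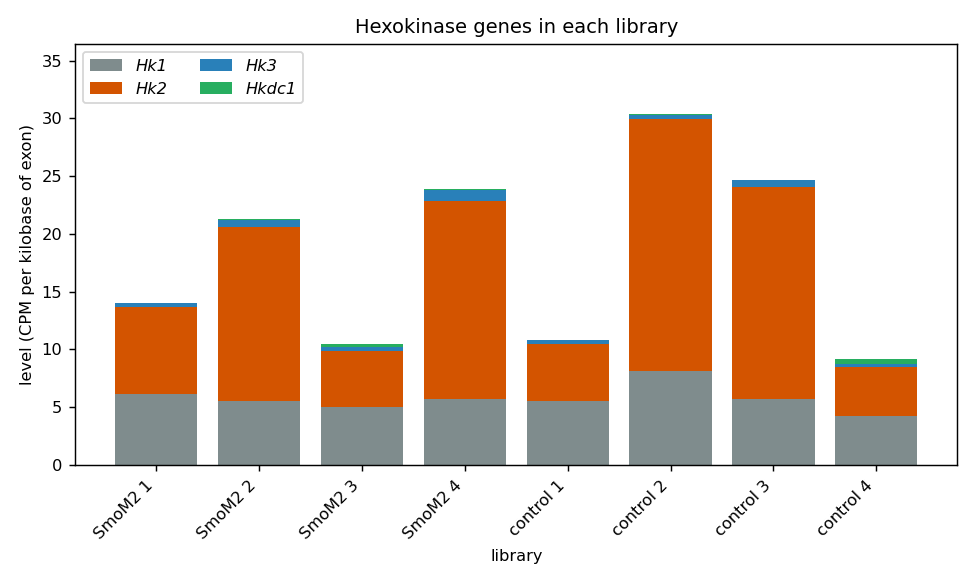
Hexokinase transcripts in each library, SmoM2-labelled libraries left of control libraries. Hk2 takes 45.5% to 74.3% of the summed CPM per kilobase, with high and low shares in both groups.

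Pfkfb3, at chr2:11471433-11554077, makes the sugar bisphosphate that activates phosphofructokinase, and followed another order. Its levels were 39.1, 56.7, 70.8 and 123 CPM in SmoM2-labelled libraries, against 98.9, 56.5, 97.9 and 63.7 CPM in control libraries. SmoM2-labelled libraries 1 and 4 were its lowest and highest, 3.14 times apart, and the control libraries lay between them. Control 1, among the lowest for Hk2, was the second highest for Pfkfb3.

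The genes of later glycolysis were the steadiest. Ldha, at chr7:46841475-46855627, encodes the lactate dehydrogenase subunit that favours lactate production. It had 185, 224, 183 and 191 CPM in SmoM2-labelled libraries and 175, 199.5, 196 and 183 CPM in control libraries, a 1.28-fold range. Pgk1, at chrX:106187100-106203699, encodes the first ATP-yielding enzyme of the pathway. Its levels were 67.1, 69.7, 55.0 and 74.8 CPM in SmoM2-labelled libraries and 68.1, 62.0, 61.7 and 61.2 CPM in control libraries, a 1.36-fold range. A larger SD within groups than theirs was held by 80.7% of the tested genes of at least 5 CPM for Ldha and by 68.8% for Pgk1. Both have near-identical processed copies elsewhere in the genome, so their counts are uncertain.

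Pdk1, at chr2:71873224-71903858, encodes a kinase that switches off pyruvate dehydrogenase. It was the lowest of the 10, with 8.17, 7.41, 8.65 and 9.57 CPM in SmoM2-labelled libraries and 9.50, 12.3, 7.97 and 9.79 CPM in control libraries, and the groups overlapped. Bnip3, at chr7:138890836-138909519, encodes a mitochondrial outer membrane protein that recruits the machinery of mitophagy. It had 45.4, 48.5, 91.2 and 49.8 CPM in SmoM2-labelled libraries, against 60.6, 34.7, 40.5 and 131 CPM in control libraries. Control 4 and SmoM2-labelled 3 were the highest libraries for Bnip3 and the lowest for Hk2, and control 2 was the lowest for Bnip3 and the highest for Hk2. Control 4 and SmoM2-labelled 3 were the 2 highest libraries for 12.4% of all tested genes.

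Per kilobase of exon, levels of different genes can be compared only roughly, because the length takes in all annotated exons of a gene. Ldha was the most abundant at 58.0 ± 4.57 CPM per kilobase (mean and SD over the 8 libraries). It exceeded the next gene in all 8. The counts of Ldha and Pgk1 are uncertain because of their processed copies. Pgk1 at 29.0 ± 2.76 and Bnip3 at 27.7 ± 14.4 CPM per kilobase followed, with Pgk1 above Bnip3 in 6 libraries. Ndrg1 (16.4 ± 4.56), Slc2a1 (14.3 ± 2.92), Hif1a (13.8 ± 2.60), Hk2 (11.7 ± 7.10) and Pfkfb3 (10.02 ± 3.70 CPM per kilobase) formed a run in which each exceeded the next in 5 or 6 of the 8 libraries, within their spread. Hk1 at 5.76 ± 1.12 and Pdk1 at 1.18 ± 0.194 CPM per kilobase were the lowest, and Hk1 exceeded Pdk1 in all 8.

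The comparison of the design asks what SmoM2 changes in GLI2+ stroma. All 10 members passed the filter on low counts, and none was called by edgeR's quasi-likelihood test at a Benjamini-Hochberg adjusted p under 0.05, where the share called over the 20162 genes tested was 0%. At an unadjusted p under 0.05, 0 of 10 members passed, against 3.75% of all genes tested by edgeR. Every tally of members in this paragraph counts Hk2 and Ndrg1, from whose outcome nothing is read. DESeq2 called 0 of 10 members and 0.275% of the genes it tested, and limma-voom called 0 members and 0% of genes. No member's groups were free of overlap, against 2.44% of all genes. By the sign of the estimate, 3 members lay higher and 7 lower in SmoM2-labelled libraries, and the median log2 fold change was −0.06, against −0.00 over all tested genes. The tally was 5 higher and 5 lower under limma-voom, where Hk2 and Slc2a1 turned, and 4 higher and 6 lower under DESeq2, other scaling factors and counts divided by 5, where Slc2a1 turned.

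Hk2 averaged 66.5 ± 35.0 CPM in SmoM2-labelled libraries and 73.6 ± 54.1 CPM in control libraries, and its log2 fold change was −0.15 ± 0.61 (SE; 95% interval −1.54 to 1.24; from edgeR). The adjusted p by edgeR was 0.9999 for each of the 8 members other than Hk2 and Ndrg1. Ndrg1 averaged 110.2 ± 30.6 CPM in SmoM2-labelled and 106 ± 34.0 CPM in control libraries, and the interval of its log2 fold change ran from −0.56 to 0.67 around 0.06. For Bnip3 the means were 58.7 ± 21.7 CPM in SmoM2-labelled and 66.7 ± 44.3 CPM in control libraries, with an interval of the log2 fold change from −1.17 to 0.80. The narrowest intervals were those of Ldha, from −0.16 to 0.27 around 0.06, and Pgk1, from −0.16 to 0.31 around 0.08. Slc2a1 averaged 50.2 ± 9.62 CPM in SmoM2-labelled and 50.2 ± 12.3 CPM in control libraries (interval −0.46 to 0.46). The intervals of the log2 fold change were −0.49 to 0.33 for Hk1, −0.92 to 0.65 for Pfkfb3, −0.58 to 0.13 for Pdk1 and −0.45 to 0.38 for Hif1a. In the authors' deposited table the adjusted p was 1 for all 10, with nothing read from it for Hk2 and Ndrg1. The authors' log2 fold changes ran from −0.22 for Pdk1 to 0.08 for Pgk1.

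**Figure D3:**
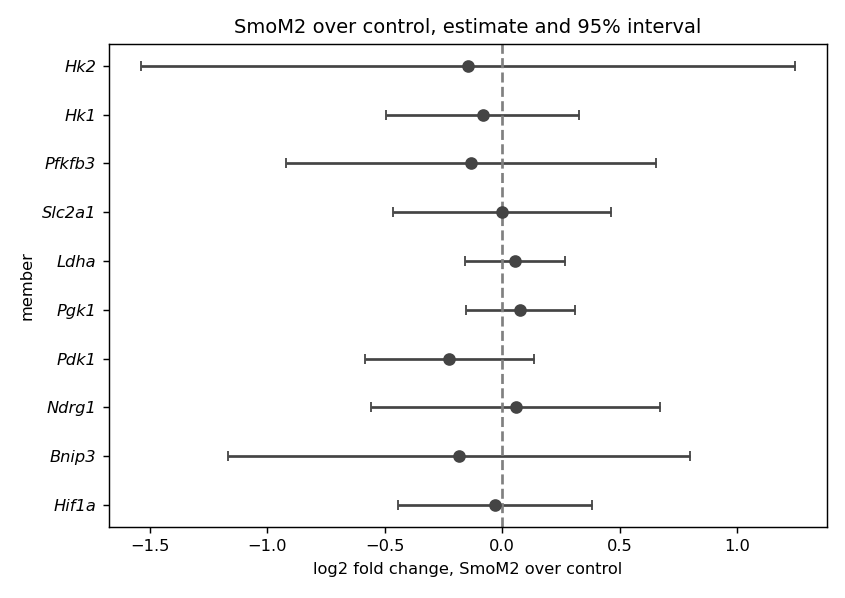
Log2 fold change of each gene, SmoM2-labelled over control, with its 95% interval from edgeR's fit over 20162 genes (4 libraries per group). All 10 intervals cross 0, with nothing read from those of Hk2 and Ndrg1. That of Hk2 is the widest, −1.54 to 1.24, and those of Ldha and Pgk1 the narrowest.

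Other genes of these pathways were read from lists fixed by function, with 0 genes called by edgeR in every list. Of 16 glycolysis enzymes other than the hexokinases and the members, 10 had a positive and 6 a negative estimate, with a median log2 fold change of 0.03. Pkm, the pyruvate kinase of most tissues, averaged 271 ± 18.3 CPM in SmoM2-labelled and 266 ± 16.4 CPM in control libraries, and Aldoa, an aldolase, 291 ± 26.5 CPM in SmoM2-labelled and 272 ± 12.9 CPM in control libraries. Eno1b, a near copy of the enolase gene Eno1 with which its reads may be shared, had the only unadjusted p under 0.05 of that list, at 14.2 ± 6.23 CPM in SmoM2-labelled and 7.97 ± 0.748 CPM in control libraries. Of 21 HIF target genes, 11 had a positive and 10 a negative estimate, with a median of 0.00. Unadjusted p under 0.05 was reached by Vegfa, the endothelial growth factor, at 80.4 ± 10.8 CPM in SmoM2-labelled and 105 ± 22.2 CPM in control libraries. It was also reached by Hmox1, a haem-degrading stress enzyme, at 39.9 ± 15.8 CPM in SmoM2-labelled and 23.7 ± 5.68 CPM in control libraries, and neither passed the adjustment. An unadjusted p under 0.05 was reached by 1 of 16 glycolysis enzymes and 2 of 21 HIF target genes, against 3.75% of all tested genes.

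Among 11 genes of pyruvate entry into mitochondria, 3 had a positive and 8 a negative estimate (median −0.04). Pdk4, the pyruvate dehydrogenase kinase that rises with fasting and glucocorticoids, had 109, 107, 213 and 103 CPM in SmoM2-labelled libraries, against 147, 29.9, 97.5 and 295 CPM in control libraries. Its 2 highest libraries were those of Bnip3, control 4 and SmoM2-labelled 3, a pattern shared by 4 of these 11 genes (Pdk2, Pdk4, Pdp1 and Pdp2), by 4 of 11 HIF factors and regulators (Epas1, Hif3a, Hif1an and Cited2), and by 2 of the 6 mitophagy genes other than Bnip3 (Bnip3l and Pink1), against the 12.4% of all tested genes. The pattern was also held by 4 of 21 HIF target genes, 2 of 16 glycolysis enzymes, 1 of 11 transporters and 0 of 7 pentose phosphate genes. It was taken from Bnip3 in these same libraries, so nothing is read from these counts. Epas1, the HIF subunit abundant in endothelium, had 78.0, 64.2, 105 and 58.1 CPM in SmoM2-labelled libraries and 63.5, 94.7, 77.2 and 239.9 CPM in control libraries, with control 4 far above the rest. By estimate, 6 of 11 HIF factors and regulators, 5 of 11 glucose and lactate transporters, 5 of 7 pentose phosphate genes, 3 of 7 mitophagy genes and 3 of 4 genes of the NDRG family lay higher in the SmoM2-labelled group, with medians from −0.11 for the mitophagy genes to 0.06 for the NDRG family. None of the 13 respiratory chain subunits, of which 3 had a positive and 10 a negative estimate (median −0.06), had that pattern.

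Some markers of stress, of fibroblasts and of other cell types had these orders and others did not, and their part in the result was not tested. Of 9 fibroblast markers, 3 (Dcn, Lum and Gsn) had the same 3 lowest libraries as Hk2, against 6.5% of all tested genes. Another 2, Inmt and Tcf21, had control 4 and SmoM2-labelled 3 as their 2 highest libraries, against 12.4% of all tested genes. The fibroblast sum was lowest in control 4 and SmoM2-labelled 3, and its largest part in every library was Gsn (25035 to 39956 CPM). Among 12 cytokine and NF-kB response genes, 6 had the same 3 lowest libraries as Hk2, and the list summed to 4090, 4722, 2639 and 2927 CPM in SmoM2-labelled libraries and to 2792, 4116, 5468 and 2499 CPM in control libraries. Of 6 heat shock genes, 3 had the same 3 lowest libraries, and the list summed to 2527 to 4043 CPM in SmoM2-labelled libraries and 2188 to 5278 CPM in control libraries, lowest in control 4 and highest in control 3. The 12 immediate early genes, which rise with handling and stimulation of cells, summed to 17956 to 37760 CPM in SmoM2-labelled and 29129 to 44543 CPM in control libraries, and none had the 3 lowest libraries of Hk2. The 8 epithelial markers summed to 411, 254, 922 and 214 CPM in SmoM2-labelled libraries and to 295, 363, 376 and 1488 CPM in control libraries, highest in control 4 and SmoM2-labelled 3, where Bnip3 was also highest. For 5 of these 8 epithelial markers and 4 of 8 endothelial markers, those were the 2 highest libraries. Scgb1a1 among the epithelial and Tek among the endothelial markers instead had the 3 lowest libraries of Hk2, control 4 and SmoM2-labelled 3 among them. Endothelial markers summed to 65.9 to 121 CPM in SmoM2-labelled and 66.0 to 165 CPM in control libraries. That sum was lowest in SmoM2-labelled 3 and control 1 and highest in control 4. No epithelial or endothelial marker was at 0 in any library. Immune markers summed to 483 to 1453 CPM in SmoM2-labelled and 475 to 674 CPM in control libraries, and none of the 10 had the 3 lowest libraries of Hk2 or the 2 highest of Bnip3. Cartilage markers summed to 1759, 971, 310.1 and 1179.6 CPM in SmoM2-labelled libraries and to 869, 1333, 277 and 129 CPM in control libraries, low in SmoM2-labelled 3 and control 4 but also in control 3. Mesothelial markers summed to 81.8 to 160.1 CPM in SmoM2-labelled and 169 to 406 CPM in control libraries, with no overlap between the groups. Taken singly, Msln, Upk3b and Gpm6a did not overlap, while Wt1, Lrrn4 and Muc16 did. Groups did not overlap for 2.44% of all tested genes.

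**Figure D4:**
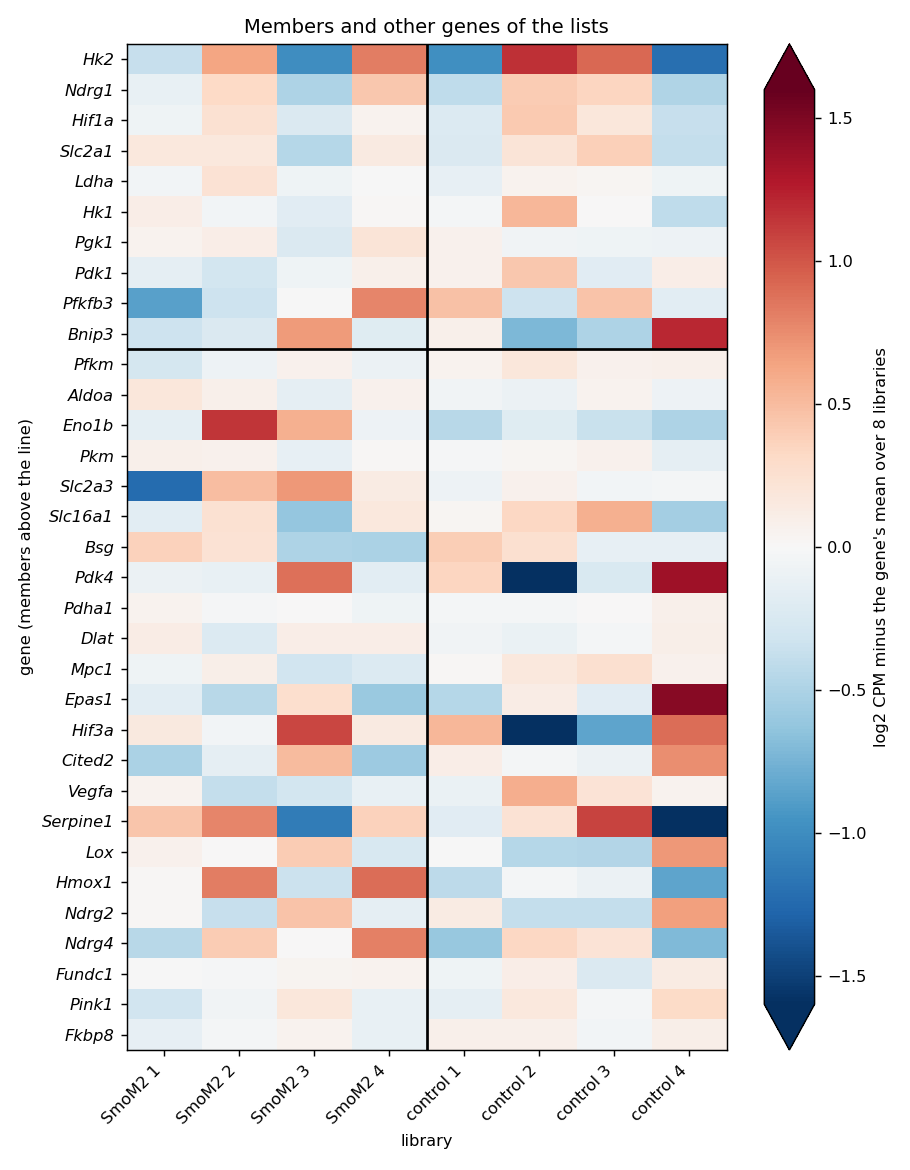
Difference of log2 CPM from each gene's mean over the 8 libraries, SmoM2-labelled libraries left of control libraries, for the 10 genes and for the other named genes of 7 pathway lists; colours are capped at 1.6 in either direction. Hk2, Ndrg1 and Hif1a are low in control 1, control 4 and SmoM2-labelled 3; Bnip3 and Pdk4 are highest in control 4 and SmoM2-labelled 3.

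The genes whose pattern over the 8 libraries was most like that of Hk2 were sought among 11394 genes, by the root mean square difference of log2 CPM after centring each gene. They were Ccl2 (0.27), Usp2 (0.29), Ccl7 (0.30), Rnd1 (0.31), Itpkc (0.32), Tnfaip6 (0.32), Adamts4 (0.33) and Nr4a3 (0.33). Ccl2, a monocyte chemokine, had 37.7, 65.8, 18.3 and 74.9 CPM in SmoM2-labelled libraries and 21.8, 60.9, 76.9 and 13.1 CPM in control libraries. Those most like Ndrg1 were Metrnl (0.08), B3gnt2 (0.09), Hpse (0.10), Cnnm4 (0.10), Pxn (0.11), Stk40 (0.12), Gprc5b (0.12) and Armcx3 (0.12). The 2 lists share 0 genes. The measure also takes the size of the swing into account, which was 5.17-fold for Hk2 and 1.89-fold for Ndrg1, and its part in this was not tested.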

How the data were processed

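The deposited values are estimated counts per Ensembl gene for 8 libraries, that the authors gave as whole numbers, and they were used without further rounding. FastQC, HISAT, StringTie, DESeq and mm10 are named in the submitters' processing notes, without versions or roles. The authors' deposited table gives, per the file headers, their normalised mean signal per group, its ratio (fold change), the log2 fold change and p-values. No header or label ties a column number to an animal.

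Groups were compared by edgeR's quasi-likelihood test (version 4.0.16, R 4.3.3; robust glmQLFit, TMM factors, filterByExpr, group as the sole term, Benjamini-Hochberg over 20162 genes, threshold 0.05), tested on simulated data. The size of each log2 fold change divided by the root of its F statistic gave the SE. DESeq2 1.42.0, limma 3.58.1, other factors, no filter, sex (from Xist and Y-linked genes) as a covariate, counts divided by 5, and leaving out each library were alternatives. CPM for centring used a prior count of 2. Exon lengths and coordinates are from GENCODE M21 (mm10), 1-based. Percent errors and floors from counts cover counting error only. The intervals of the log2 fold change come from edgeR's fit and also take in the spread between libraries.

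The members and lists were chosen with earlier results of these data known. Named are the members, up to 4 genes per list (the 2 most abundant, and the highest and lowest fold change, above 5 CPM), and the 8 genes most like Hk2 and Ndrg1. Some named genes are left out of the text. Some planned genes are not reported here, and sums over genes leave them out.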

Additional observations from a re-analysis of the deposited data

Results flagged for a closer look

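Of 112 groups of 4 libraries examined over the members and named genes, 10 held a library far from the other 3 by Dixon's test, where chance gives about 1 in 20. The members Slc2a1, Bnip3 and Pgk1 were among them. Slc2a1 was 35.8 CPM in SmoM2-labelled 3, against 54.2 to 55.5 CPM in the other SmoM2-labelled libraries. Bnip3 was 91.2 CPM in SmoM2-labelled 3, against 45.4 to 49.8 CPM in the others. Pgk1 was 68.1 CPM in control 1, against 61.2 to 62.0 CPM in the other controls.

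SmoM2-labelled 3 also stood apart for Pdk4, at 213 CPM against 103 to 109 CPM, and for Hif3a, a HIF subunit that can restrain the others, at 34.3 CPM against 16.0 to 18.3 CPM. SmoM2-labelled 2 stood apart for Dlat, a subunit of pyruvate dehydrogenase, at 34.7 CPM against 43.6 to 43.9 CPM. It also did so for Il6, at 279 CPM against 151 to 158 CPM. Myc was 99.8 CPM in SmoM2-labelled 1, against 83.0 to 84.8 CPM in the other SmoM2-labelled libraries. Among the controls, Rpia, a pentose phosphate enzyme, was 18.5 CPM in control 1, against 23.0 to 23.5 CPM. Fkbp8 was 117 CPM in control 3, against 127 to 129 CPM in the others.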

How the results depend on the processing

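The count of genes called by edgeR was 0, and 67 by DESeq2; the cause was not tested. It was 0 under limma-voom, the other factors, no filter, the sex covariate and counts divided by 5. Leaving out 1 library gave 0 to 1 calls. The call without SmoM2-labelled 4 was Gm20716, which is no member (log2 fold change −14.1, adjusted p = 0.032). For the members, 55 of 60 values under the 6 other alternatives kept their direction, and no adjusted p was below 0.822. This tally counts Hk2 and Ndrg1, from whose outcome nothing is read. Hk2 turned to 0.049 under limma-voom. Slc2a1, with an estimate of −0.00023, turned to 0.0060 under DESeq2, 0.00048 with counts divided by 5, 0.0046 with the other factors and 0.011 under limma-voom.

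With 1 library left out, 63 of 80 member values kept their direction, with Hk2 and Ndrg1 counted but nothing read from their outcome. The log2 fold change ranged from −0.43 to 0.28 for Hk2, −0.21 to 0.11 for Hk1, −0.51 to 0.070 for Pfkfb3, −0.11 to 0.14 for Slc2a1, −0.019 to 0.087 for Ldha, −0.080 to 0.21 for Ndrg1, −0.48 to 0.38 for Bnip3 and −0.14 to 0.12 for Hif1a. Pgk1 (0.02 to 0.16) and Pdk1 (−0.32 to −0.11) kept their sign. The difference in Hk2 share ranged from −3.43 to 6.16 points. Of the 8 genes most like Hk2, 1 was also among the 8 by Pearson correlation, and 3 of 8 for Ndrg1. No paired analysis was possible because the groups share no replicate numbers that tie libraries together in the labels. With 4 libraries a group, differences inside a member's interval could not be resolved. The interval of Hk2 takes in the spread for which Hk2 was chosen, so nothing is read from its width.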

Other observations

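Genes whose pattern was most like that of Bnip3 were sought after its levels were seen, with the same measure and limit on the mean. The 8 nearest included Cnst (0.11), Ranbp9 (0.11), Fmo2 (0.12), Il6ra (0.15), Ston1 (0.15), Kank3 (0.15) and Sesn1 (0.17), given as the root mean square difference of centred log2 CPM. Fmo2, a flavin monooxygenase abundant in lung, had 1595, 1759, 3160.3 and 1711 CPM in SmoM2-labelled libraries, against 2095, 1155, 1524 and 3637 CPM in control libraries. Control 4 and SmoM2-labelled 3 were again the highest and control 2 the lowest. By Pearson correlation, 4 of the 8 nearest were again among the most like Bnip3.

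Angptl4, a secreted inhibitor of lipoprotein lipase and a HIF target, was chosen after its values were seen. It had 184, 196, 306 and 101 CPM in SmoM2-labelled libraries, against 276, 49.6, 102 and 445 CPM in control libraries, and its 2 highest libraries were those of Bnip3.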
